A study of Rattus norvegicus with 30 samples.

Results

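Hearts that received only the trigger of anaesthetic preconditioning (APC_TRI, 5 arrays) were compared with control hearts (CTL, 5 arrays), which together made up 10 of the 30 arrays of the series. The arrays were chosen by the protocol in their labels and by no measured value. Rat left-ventricular total RNA was hybridised to each of the 30 Affymetrix arrays, which carry 8799 probe sets, and the labels give 5 biological replicates per protocol. The remaining protocols were the trigger of ischaemic preconditioning (IPC_TRI), ischaemic and anaesthetic preconditioning (IPC and APC), and ischaemia (ISCH), with 5 arrays each. The labels name no strain, sex or age, nor the anaesthetic, its dose, its duration or the time of sampling, and they do not say what the control hearts underwent.

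Preconditioning is a short stimulus that makes the heart more resistant to a later ischaemia. A volatile anaesthetic can act as that stimulus. In cardiomyocytes it is thought to work through inhibitory G proteins, protein kinase C, reactive oxygen species and ATP-sensitive potassium channels, with mitochondria as a main site of protection. The trigger-only hearts address what the stimulus itself does to the transcripts of the ventricle.

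The trigger hearts had higher RNA for the p53-induced cell cycle inhibitor Cdkn1a, the inhibitory G protein subunit Gnai2 and the sodium-calcium exchanger Slc8a1. They had lower RNA for the fatty acid carrier Fabp4, the chaperones Hspa1a and Dnaja1, the respiratory chain subunit Uqcrc2, and interferon-induced genes such as Cxcl10 and Gbp2. These changes are those of the brightest probe set of each gene. Other probe sets of Cdkn1a, Gnai2, Slc8a1 and Dnaja1 did not pass the threshold given below. The calls of Cdkn1a and Hspa1a were lost in a fit with a covariate for array quality, also given below. Of the 5244 probe sets that passed a filter on low signal, 453 (8.64%) differed between APC_TRI and CTL at an adjusted p under 0.05, 195 higher (3.72%) and 258 lower (4.92%). Counting 1 probe set per gene, 249 of 3155 genes (7.89%) were called, 114 higher (3.61%) and 135 lower (4.28%). P-values came from limma with Benjamini-Hochberg adjustment over all 5244 probe sets, and 1342 probe sets had an unadjusted p under 0.05. Changes are differences of log2(signal + 16) after quantile normalization, APC_TRI minus CTL, which understates the change of dim genes. The median change over all genes was 0.01.

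Among the called probe sets the median size of the change was 0.84 on the log2 scale. Changes larger than 1 numbered 40 upward and 97 downward. The arrays of the 2 groups did not overlap for 696 probe sets (13.3%), and 342 of the 453 called ones were among these. The share called grew with signal, being 3.81% in the dimmest of 4 equal bins of the probe sets tested, then 6.03% and 8.85%, and 15.9% in the brightest. In the brightest bin 109 were higher and 99 lower, and in the dimmest 14 were higher and 36 lower.

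**Figure D1:**
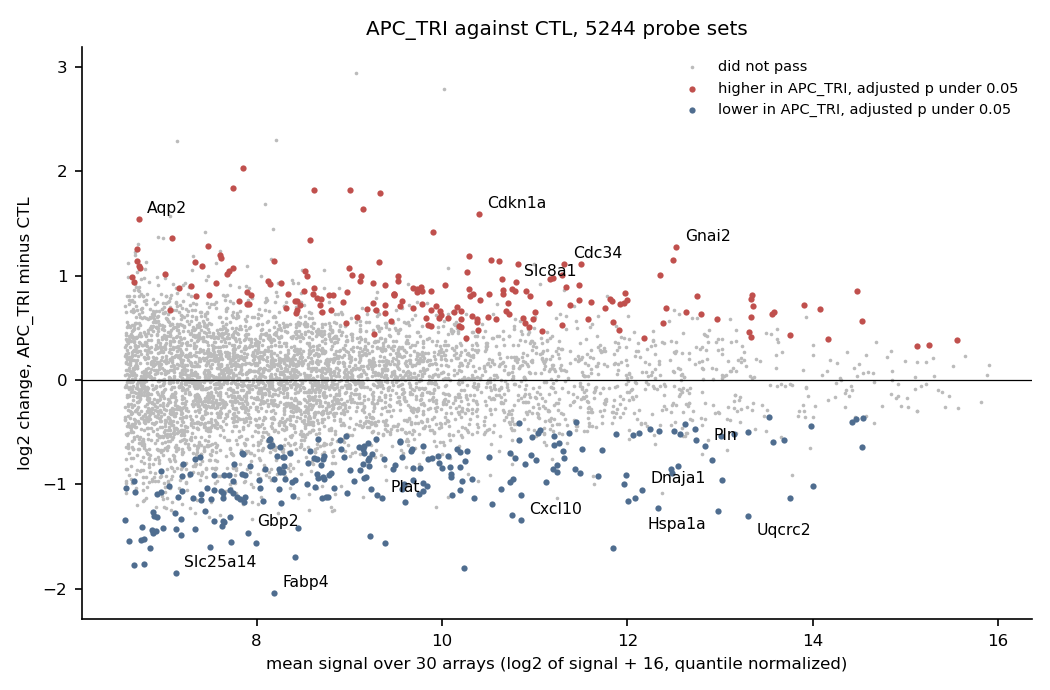
Each point is 1 of 5244 probe sets, with the mean signal over 30 arrays on the x axis and the log2 change, APC_TRI minus CTL, on the y axis. Red points were higher and blue points lower in APC_TRI at an adjusted p under 0.05, grey points did not pass, and the largest named fall is that of Fabp4 at -2.04.

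Arrays within APC_TRI had a mean correlation of 0.942 and those within CTL 0.961, and APC_TRI and CTL arrays correlated at 0.928 on average. No pair of arrays held identical values. The Gapdh 3′ minus 5′ difference, which tracks RNA integrity and labelling, was 0.192 ± 0.143 on the log2 scale in APC_TRI and -0.0612 ± 0.105 in CTL (SD, n = 5 each; 2-sided exact permutation p = 0.0079, the smallest that 5 against 5 allows; 0.04 adjusted over 5 measures). The same difference for beta-actin ran the other way, at -0.357 ± 0.279 in APC_TRI and 0.0816 ± 0.245 in CTL (exact p = 0.04, adjusted 0.067). The brightest 1% of probe sets carried 34.8 ± 1.24% of the signal in APC_TRI and 30.5 ± 3.22% in CTL (exact p = 0.04, adjusted 0.067). With the beta-actin difference as a covariate 274 probe sets were called, 219 of them among the 453. Of the 70 genes named here that passed, 26 were lost with it, among them Cdkn1a, Hspa1a, Camk2d, Irgm2 and Idh2, some with changes about as large as without it. A covariate for the bacterial spikes left 379 called, 357 of them among the 453. The part of the Gapdh difference and of the brightest 1% in the calls was not tested.

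**Figure D2:**
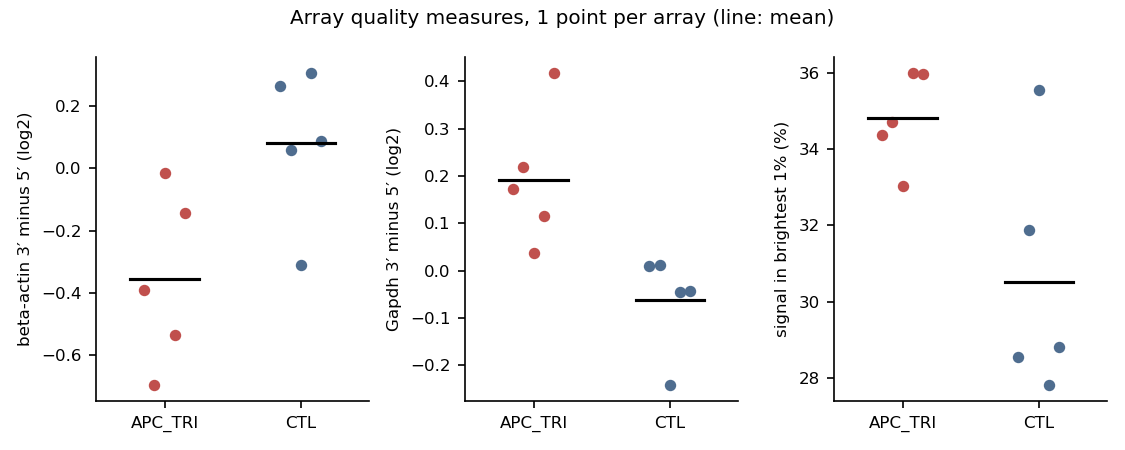
Each point is 1 array, with APC_TRI left and CTL right, and the line is the group mean. The panels show the 3′ minus 5′ log2 differences of beta-actin and Gapdh and the percentage of signal in the brightest 1% of probe sets, and only for Gapdh do the groups not overlap.

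Markers of ventricular cardiomyocytes were bright in both groups. All 7 passed the filter, their summed signal ranged from 212000 to 262500 in APC_TRI and from 155700 to 260400 in CTL, and 0 of 7 were called. Marker sums here and below are of deposited signal, whereas calls are on quantile normalized values. The medians of this sum were 252600 in APC_TRI and 177200 in CTL, but after normalization the median change of the 7 was -0.13. A second probe set of Myl2, the ventricular myosin light chain, did pass, at -1.01 (adjusted p = 0.00086). The atrial markers Myl7 and Nppa stood out on the third APC_TRI array. Myl7 read 3856.3 there, against 453.1 to 731.2 on the other APC_TRI arrays and 226.7 to 617.1 in CTL. Nppa, atrial natriuretic peptide, read 8617.4 there and 1383.7 to 2179.8 on the other APC_TRI arrays, against 1124.6 to 2593.4 in CTL. Neither was called. Without that array 474 probe sets were called, of which 397 were among the 453. In bulk tissue, fewer cells of a type and less RNA per cell cannot be told apart.

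Among the markers of other cell types, Dcn and Fabp4 were called. Summed fibroblast markers ranged from 38500 to 42700 in APC_TRI and from 22160 to 28570 in CTL, but Dcn, the brightest of these 6 genes and the only one called, carried the sum. The median change of the 6 was -0.34, and 4 had changes below 0, among them Col3a1 at -1.0 and Lum at -0.42, neither past the threshold. Summed smooth muscle and pericyte markers ranged from 14210 to 23060 in APC_TRI and from 12060 to 14400 in CTL, with no member called. The sums of the endothelial, myeloid, lymphocyte, red blood cell, skeletal muscle, nerve and adipocyte markers overlapped between the groups, and none of the mast cell markers passed the filter. Several of these sums rest partly on dim genes. Of those on the array, 2 of 5 myeloid, 1 of 2 red blood cell, 1 of 5 nerve and 2 of 4 adipocyte markers passed. Of the adipocyte markers, Fabp4 was called.

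The largest rise among named genes was that of Cdkn1a, the cyclin-dependent kinase inhibitor p21, which p53 induces and which arrests the cell cycle. Its deposited signal was 4246.7, 4633.3, 1986.0, 2994.5 and 3524.5 on the APC_TRI arrays, against 1050.9, 1717.5, 1314.1, 966.5 and 870.2 on the CTL arrays. Every APC_TRI array lay above every CTL array. The change was 1.59 ± 0.40 (SE), 3.00-fold, with a limma adjusted p of 0.012. A second Cdkn1a probe set gave 0.79 with an adjusted p of 0.19. The call was lost with the beta-actin covariate, where the change was 1.14.

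Gnai2 encodes an alpha subunit of the inhibitory G proteins through which adenosine, opioid and muscarinic receptors act, the same receptors that can start preconditioning. Its signal was 12635.3, 11110.3, 9934.9, 9745.1 and 12503.8 in APC_TRI, against 4427.5, 4367.9, 4946.9, 3585.9 and 5163.9 in CTL. The lowest APC_TRI array was thus well above the highest CTL array. The change was 1.27 ± 0.20, 2.42-fold (limma adjusted p = 0.00016). The 2 further Gnai2 probe sets gave 0.34 and 0.07, and neither passed, so the probe sets of this gene disagree.

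Cdc34, a ubiquitin-conjugating enzyme that helps mark cell cycle inhibitors for degradation, read 4745.7, 3487.4, 3067.6, 3562.6 and 4182.9 in APC_TRI and 1873.1, 1710.7, 1879.7, 1589.6 and 1815.9 in CTL. The groups were well apart, and the change was 1.11 ± 0.17 (adjusted p = 8.9e-05). A second probe set of Cdc34 rose by 0.76 (adjusted p = 0.016), and another gave 0.02.

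Some rises were in dim genes. Rfk, riboflavin kinase, which makes the flavin cofactor FMN, read 163.2, 182.0, 175.9, 163.6 and 310.7 in APC_TRI and 71.3, 63.1, 69.7, 51.1 and 53.0 in CTL, a change of 1.36 ± 0.27 (adjusted p = 0.0019). Its groups did not overlap. Aqp2, a water channel best known from the kidney collecting duct, read 131.5 to 425.5 in APC_TRI and 27.2 to 93.4 in CTL, a change of 1.54 ± 0.36 (adjusted p = 0.0075), again without overlap. The histone gene Hist4h4 changed by 1.28 (adjusted p = 0.005) and the mitochondrial import factor Timm44 by 1.09 (0.011), the second of which was lost with the beta-actin covariate at 0.95. The rule for naming also gave Apom (1.2), Espn (1.17), Tmtc3 (1.09), Casp2 (1.07) and Tmem205 (1.07). Of those 5 calls, Apom was lost without any of 9 arrays and Tmtc3 without any of 8. Apom and Tmtc3 were each lost under 12 of 21 alternatives. Espn and Casp2 were each lost without any of 4 arrays, and Tmem205 without 1. All but Casp2 were also lost with the beta-actin covariate. Without the second CTL array the changes were 0.88 for Apom, 0.90 for Espn and 0.95 for Tmem205. Tmtc3 stood at 0.88 without the third CTL array and Casp2 at 0.96 without the third APC_TRI array.

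Fabp4, the fatty acid carrier of adipocytes, macrophages and capillary endothelium, had the largest fall. Its signal was 14.6, 22.0, 69.4, 86.9 and 31.8 in APC_TRI, against 148.7, 181.0, 184.1, 259.6 and 216.6 in CTL, with no overlap. The change was -2.04 ± 0.34, 4.11-fold lower (adjusted p = 0.00038). Its signal was dim, and all APC_TRI readings but the fourth lay below 79.5, the lowest signal in the dimmest bin of probe sets. Over the alternatives the change ran from -2.52 to -1.35, and the call was never lost. The summed adipocyte markers, of which Fabp4 is a small part, overlapped at 1373 to 2362 in APC_TRI and 1347 to 2157 in CTL. Of the 4 adipocyte markers on the array, 2 passed the filter.

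Slc25a14, a mitochondrial carrier also called UCP5, read 39.8, 69.8, 130.7, 55.2 and 60.7 in APC_TRI, against 218.4, 241.6, 322.5, 310.7 and 256.3 in CTL. The groups did not overlap, and the change was -1.85 ± 0.35 (adjusted p = 0.0013). Lyn, a Src family kinase of blood cells, fell by 1.60 (adjusted p = 0.013), Dlgap4 by 1.55 (0.012), Tmem183a by 1.44 (0.017) and the tyrosine phosphatase Ptprr by 1.35 (0.011). All 4 calls were lost with the beta-actin covariate, with changes of -1.43 for Lyn, -1.38 for Dlgap4, -1.31 for Tmem183a and -1.16 for Ptprr. A second Lyn probe set gave -0.38 and did not pass. Ddost, a subunit of the complex that attaches sugar chains to new proteins, changed by -1.45 (0.0088), and Tnks2, a poly-ADP-ribosyltransferase, by -1.41 (0.006). Neither lost its call under any alternative run. Ddost was dim, however, at 9.0 to 82.3 in APC_TRI, and its change ran from -1.89 to -0.92 over the alternatives. The 3 further genes named by rule passed with all arrays, but each lost its call without any 1 of several arrays. The neurotransmitter transporter Slc6a17 (-1.77) was lost without any of 3 arrays, at -1.55 without the fifth APC_TRI array, and with the beta-actin covariate. The squalene synthase Fdft1 (-1.69) was lost without any of 4 arrays, at -1.51 without the fifth APC_TRI array. Another Fdft1 probe set passed at -1.40, while others gave 0.33 and -0.30 and did not pass. The transcription factor Wt1 (-1.54) was lost without either of 2 arrays, at -1.25 without the fourth APC_TRI array.

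**Figure D3:**
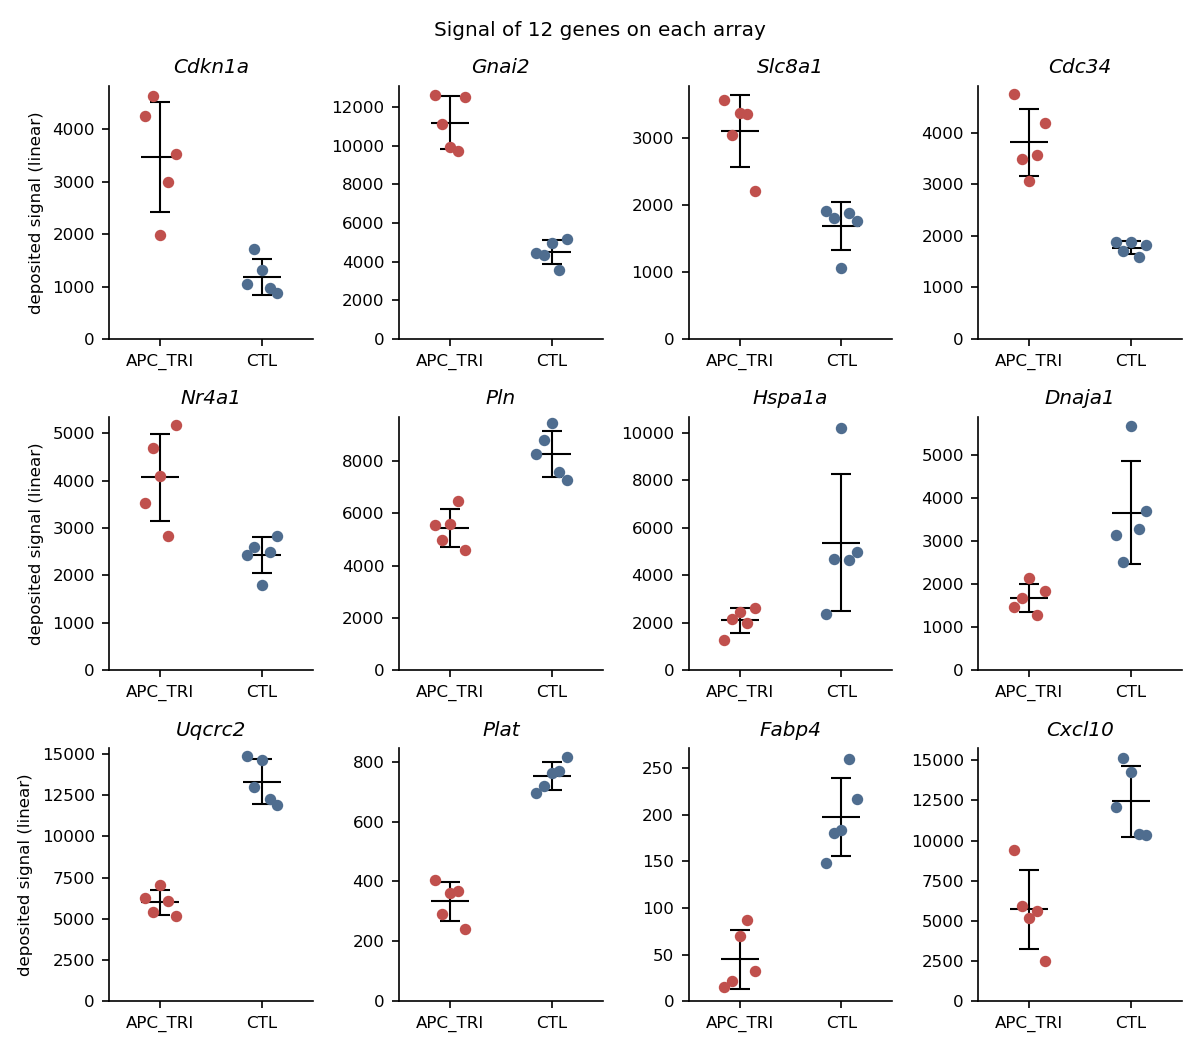
Deposited signal on a linear axis from 0, 1 point per array, with APC_TRI left and CTL right and bars for mean ± SD of 5 arrays. The 5 genes from Cdkn1a to Nr4a1 were higher and the 7 from Pln to Cxcl10 were lower in APC_TRI.

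Interferon-induced genes had the lowest median change of the 28 process lists. This list holds antiviral effectors, chemokines and antigen-processing genes that interferon receptors switch on through STAT and IRF factors. Of 17 members tested, 5 fell and 0 rose, the median change was -0.78 against 0.01 over all genes, and 17 of 17 changes were below 0, against 1528 of 3155 genes. The share called was 29.4% against 7.89% of all genes. The list was drawn up with results of these data known.

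Gbp2, an interferon-induced GTPase, read 368.9, 486.4, 383.1, 314.8 and 340.3 in APC_TRI, against 901.0, 1565.9, 1136.2, 1137.9 and 803.1 in CTL. The change was -1.46 ± 0.26 (adjusted p = 0.00091). Cxcl10, a chemokine that attracts activated T cells, read 9390.0, 5893.5, 5162.1, 5609.3 and 2520.4 in APC_TRI, against 12082.7, 15133.6, 14287.7, 10419.1 and 10317.9 in CTL. In both genes every APC_TRI array was below every CTL array, and Cxcl10 changed by -1.34 ± 0.31 (adjusted p = 0.0061).

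Rsad2, the antiviral protein viperin, read 4967.0, 4406.3, 3680.3, 3329.6 and 2154.0 in APC_TRI and 8135.2, 9454.3, 8844.9, 7557.6 and 6316.5 in CTL, a change of -1.19 ± 0.30 (adjusted p = 0.012). A second Rsad2 probe set gave -1.22 (0.053). Irgm2, an immunity-related GTPase, changed by -0.89 (0.023) and lost its call with the beta-actin covariate, where it stood at -0.91, or without any of 3 arrays, at -0.82 without the second CTL array. Gch1, which makes the cofactor tetrahydrobiopterin of nitric oxide synthases and which is named here after its value was seen, changed by -0.90 (0.039). The antiviral genes Mx1 and Mx2 had changes of -0.78 and -1.12, the antigen transporter Tap2 had the one nearest 0, and none of these passed. Summed lymphocyte markers were 3377 to 5206 in APC_TRI and 3741 to 5333 in CTL, summed myeloid markers 1183 to 1574 in APC_TRI and 945.2 to 1516 in CTL, and the part of either in these falls was not tested.

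Promoters of 4 of the 5 interferon-induced genes that fell are shown because each holds the pattern GAAANNGAAA, the core to which STAT and IRF complexes can bind. The search covered 250 bases before the transcript start that RefSeq's promoter sequences use (GRCr8). For Rsad2 and Irgm2 that start lies inside the annotated gene, so 125 and 51 bases of their windows are left out here and the sequences end at the gene's outermost start. All are given 5′ to 3′ along the gene's own strand, with the pattern in capitals. A match on the opposite strand reads TTTCNNTTTC. Cxcl10 is at chr14:15988816-15989065 on the plus strand, Gbp2 at chr2:234005477-234005726 on the plus strand, Irgm2 at chr10:42889720-42889918 on the plus strand and Rsad2 at chr6:48788246-48788370 on the minus strand.
Cxcl10: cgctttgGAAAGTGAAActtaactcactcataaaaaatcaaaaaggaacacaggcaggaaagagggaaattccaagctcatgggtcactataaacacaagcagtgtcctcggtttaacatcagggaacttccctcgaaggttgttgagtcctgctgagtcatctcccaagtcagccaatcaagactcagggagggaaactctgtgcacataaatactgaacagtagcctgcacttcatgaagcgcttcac
Gbp2: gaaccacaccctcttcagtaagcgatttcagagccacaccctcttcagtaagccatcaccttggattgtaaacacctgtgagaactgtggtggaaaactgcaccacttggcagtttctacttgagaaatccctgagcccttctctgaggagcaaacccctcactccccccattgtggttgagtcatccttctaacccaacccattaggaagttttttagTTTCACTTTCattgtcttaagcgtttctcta
Irgm2: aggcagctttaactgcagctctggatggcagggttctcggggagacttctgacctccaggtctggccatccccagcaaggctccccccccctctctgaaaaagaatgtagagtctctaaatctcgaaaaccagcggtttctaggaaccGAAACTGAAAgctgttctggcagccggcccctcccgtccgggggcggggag
Rsad2: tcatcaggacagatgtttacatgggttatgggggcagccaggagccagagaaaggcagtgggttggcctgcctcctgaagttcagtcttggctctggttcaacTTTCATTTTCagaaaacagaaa
The pattern was searched on both strands, and it was chosen after the values were seen. It was found in 10 of the 16 members with a promoter entry, among them 4 of the 5 that fell, and in 1140 of all 33469 rat promoters of that length (3.41%). Counted back from the gene's outermost annotated start, the match begins 243 bases before it in Cxcl10, 31 in Gbp2, 51 in Irgm2 and 22 in Rsad2. In Cxcl10 and Irgm2 it lies on the gene's strand and in Gbp2 and Rsad2 on the opposite one. The letters were not found in the 250 bases of Gch1.

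The other inflammatory lists held no called fall. Of 24 cytokines and chemokines 0 were called, against 7.89% of all genes, with a median change of -0.24. Cxcl10, a chemokine that fell, was counted only among the interferon-induced genes. Among 12 adhesion molecules, Alcam, a cell adhesion receptor, and Itga7, the laminin-binding integrin of muscle, rose (16.7% called). Alcam read 1084.4, 929.7, 1005.5, 954.8 and 981.1 in APC_TRI, against 459.4, 449.8, 628.9, 439.0 and 678.8 in CTL, a change of 0.91 ± 0.18 (adjusted p = 0.002). Its groups did not overlap, nor did those of Itga7, which changed by 0.83 ± 0.15 (0.00086), although 2 other Itga7 probe sets gave -0.03 and -0.25. Of 6 NF-kB genes, Nfkbia, the inhibitor of NF-kB that NF-kB itself induces, rose by 0.69 ± 0.14 (0.0025), at 9109.7, 6615.3, 5316.2, 6689.4 and 7060.6 in APC_TRI and 4074.7, 4666.2, 4463.8, 3511.4 and 4586.5 in CTL. The chemokine Cx3cl1 averaged 7104 ± 2641 in APC_TRI and 3588 ± 498.2 in CTL (SD, n = 5 each) without overlap, and its change of 0.92 had a limma adjusted p of 0.067. Its other probe sets gave 0.65 (0.013) and 0.02.

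Of 16 heat shock and chaperone genes 2 fell and 0 rose (12.5% called against 7.89% of all genes), with a median change of -0.24. Hspa1a, the stress-inducible HSP70, read 1245.3, 2168.5, 2450.3, 1992.0 and 2609.7 in APC_TRI, against 2363.4, 4667.7, 10208.1, 4622.8 and 4991.7 in CTL. The first CTL array lay within the APC_TRI range and the third was far above the other CTL arrays. The change was -1.25 ± 0.32 (adjusted p = 0.012), and it was lost with the beta-actin covariate at -1.13. Dnaja1, a J-domain partner of HSP70, read 1471.1, 1662.5, 2140.3, 1283.8 and 1829.9 in APC_TRI and 3135.7, 2513.1, 5655.3, 3282.5 and 3692.2 in CTL, without overlap, a change of -1.05 ± 0.23 (0.0043). A second Dnaja1 probe set gave -0.28 (0.61). The constitutive Hsp90ab1 had a change of 0.36 that did not pass, although another of its probe sets changed by -0.91 (0.015). In the endoplasmic reticulum stress list, 1 of 13 was called (7.69%, near the share of all genes). It was the disulphide isomerase Pdia3 at -0.76 ± 0.17 (0.0044), whose second probe set gave 0.74 (0.089). Hsp90b1, also on this list, did not pass on its brightest probe set (0.50) but did on another, at -0.71 (0.013).

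Immediate early genes respond to stress within minutes. Of 34 members 1 rose and 1 fell (5.88% called, against 7.89% of all genes), with a median change of -0.14. Fos read 5836.6, 5842.9, 6095.4, 3837.5 and 9451.2 in APC_TRI and 5581.2, 4897.1, 6640.0, 4777.2 and 7652.0 in CTL, a change of 0.02 ± 0.19, and Jun had a change of -0.36 ± 0.22 (0.31). The orphan nuclear receptor Nr4a1 rose, at 3540.5, 4686.7, 4103.9, 2839.3 and 5179.5 in APC_TRI against 2434.5, 2600.5, 1798.0, 2494.0 and 2840.3 in CTL. The fourth APC_TRI array met the top of the CTL range. Its change was 0.74 ± 0.19 (0.011), a second probe set changed by 1.01 (0.0013), and the first was lost with median centring at 0.66. Sgk1, a kinase induced by glucocorticoids and serum, fell by 0.76 (0.016), and by 0.69 without the second CTL array, where it did not pass. Klf4, also on this list, did not pass on its brightest probe set (-0.52) but did on another, at -1.49 (0.014).

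Genes of fuel metabolism were called in both directions. The lists were not matched for signal, and 15.9% of the brightest bin of probe sets were called. Of 39 oxidative phosphorylation genes 6 fell and 4 rose (25.6% called against 7.89% of all genes), with a median change of -0.04. Uqcrc2, a core subunit of respiratory complex III, read 6259.6, 5383.4, 7021.8, 6106.8 and 5183.9 in APC_TRI, against 14887.5, 13012.3, 14633.8, 12269.3 and 11882.6 in CTL. The 2 ranges were far apart, and the change was -1.30 ± 0.18 (adjusted p = 3.9e-05). Ndufs1, the largest subunit of complex I, averaged 976.9 ± 239.9 in APC_TRI and 1926 ± 207.6 in CTL, a change of -0.97 ± 0.22 (0.0054). Cox7b, a small subunit of complex IV, read 3237.1 to 4264.0 in APC_TRI and 5623.7 to 7394.0 in CTL, a change of -0.82 ± 0.14 (0.00038). Another complex IV subunit, Cox8a, rose. It read 23839.3 to 29026.9 in APC_TRI and 11048.9 to 17243.5 in CTL, a change of 0.68 ± 0.14 (0.0031), and 2 of its 3 other probe sets also rose.

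In the citric acid cycle and pyruvate dehydrogenase list, 3 of 21 fell and 2 rose (23.8% called against 7.89% of all genes). The median change of the list was -0.23. The complex that feeds pyruvate into the cycle changed in both directions. Its E1 beta subunit Pdhb read 959.2, 1369.0, 1143.3, 1056.2 and 1289.0 in APC_TRI, against 2498.3, 2824.9, 2056.5, 2447.1 and 1918.4 in CTL, a change of -0.98 ± 0.14 (8.3e-05), and a second Pdhb probe set changed by -1.56. Its E2 subunit Dlat read 23319.3, 17528.9, 17234.7, 18674.1 and 16947.5 in APC_TRI, against 12525.6, 10152.9, 9081.8, 10783.8 and 11599.2 in CTL, a change of 0.65 ± 0.15 (0.006). Neither pair of ranges overlapped. The 2 other Dlat probe sets gave -0.61 and -0.29 and did not pass. The mitochondrial isocitrate dehydrogenase Idh2 changed by 0.57 (0.024). It was lost with the beta-actin covariate at 0.40 and without any of 3 arrays, at 0.50 without the first APC_TRI array. The aspartate aminotransferase Got2 changed by -0.50 (0.017). It was lost at -0.36 with the values as deposited, at -0.42 with median centring and at -0.43 without the fifth APC_TRI array. A second Idh2 probe set gave 0.04 and did not pass, and a second Got2 probe set passed at -0.75.

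Of 40 genes of fatty acid use and lipid storage, 6 fell and 1 rose (17.5% called against 7.89% of all genes). The median change of the list was -0.16. Beside Fabp4, the acyl-CoA binding protein Dbi read 300.0, 403.5, 456.0, 456.9 and 310.0 in APC_TRI and 853.2, 1170.6, 501.9, 1141.1 and 802.2 in CTL, a change of -1.10 ± 0.21 (0.0013). Acadvl, which starts the oxidation of very long-chain fatty acids, read 1343.9 to 2146.4 in APC_TRI and 2836.4 to 3550.3 in CTL, a change of -0.88 ± 0.17 (0.0013). These groups did not overlap either. Lpl, the lipase that frees fatty acids from lipoproteins, changed by -0.59 ± 0.12 (0.0031). It was lost at -0.42 with the values as deposited and at -0.48 with median centring. Acsl1, the main cardiac acyl-CoA synthetase and named here after its values were seen, gave calls in opposite directions, 0.58 on 1 probe set and -0.92 on another. Another 4 genes did the same (Cdc37, Ctsc, Fis1 and Igf1), out of 180 genes with several probe sets and at least 1 call. In 23 of the 180 more than 1 probe set was called, all one way, and in 152 a single one was.

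Of 27 glycolysis genes 3 fell and 0 rose (11.1% called against 7.89% of all genes), with a median change of 0.00. Eno3, the muscle enolase, read 352.0, 606.2, 407.4, 420.0 and 517.2 in APC_TRI, against 1125.3, 1225.0, 835.7, 763.4 and 993.1 in CTL. It changed by -1.04 ± 0.21 (0.002) without overlap. Pgk1 changed by -0.52 (0.016), but by -0.37 without the first APC_TRI array, where it was lost. It was also lost at -0.43 without the second CTL array and at -0.58 with median centring. A second Pgk1 probe set gave -0.09 and did not pass. Pfkp changed by -0.74 (0.035), was lost without any of 6 arrays, and stood at -0.63 without the fourth APC_TRI array, while its second probe set changed by -1.53 (0.0023).

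**Figure D4:**
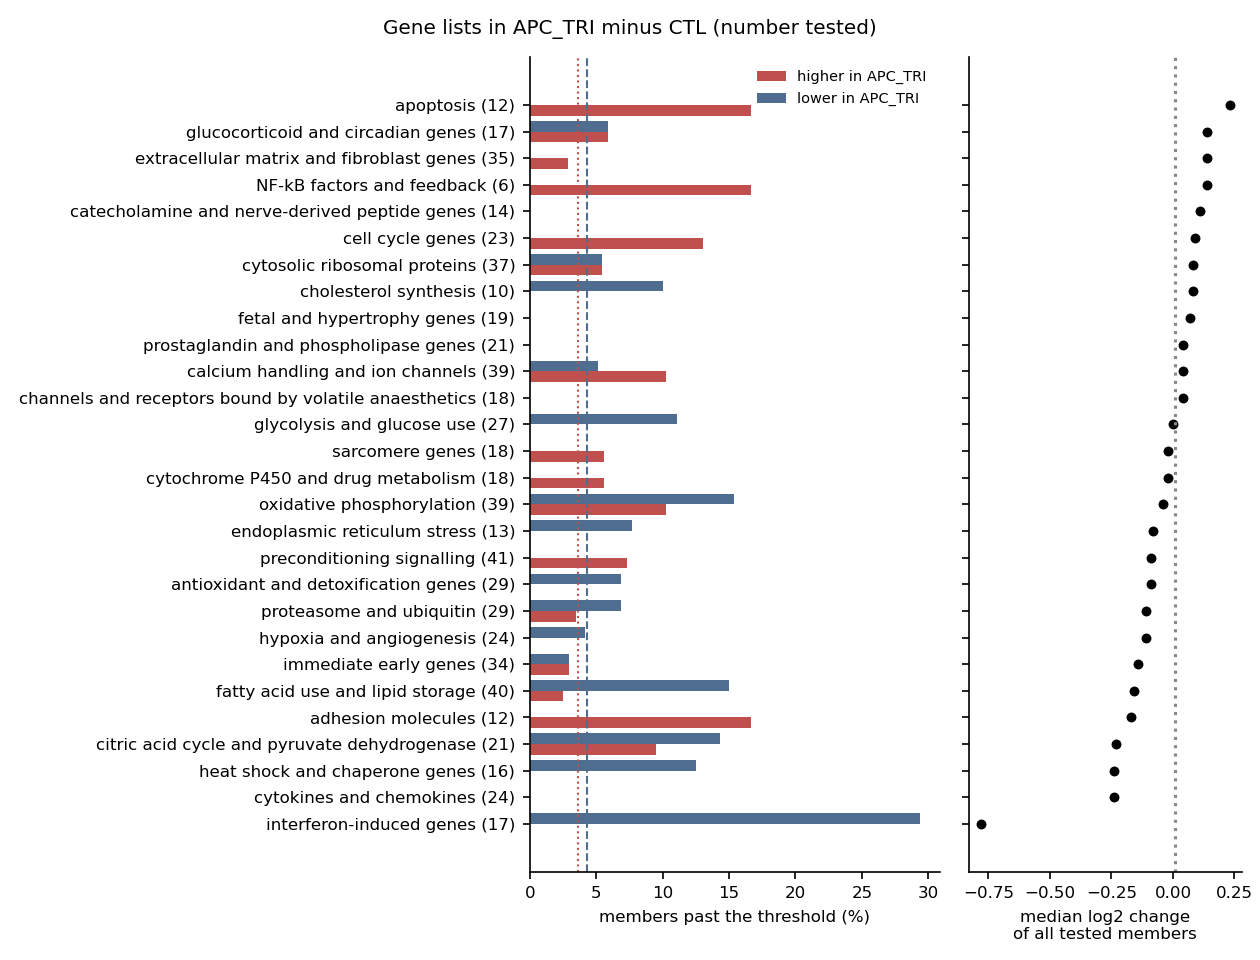
For each list, with the number of genes tested in brackets, the left panel gives the percentage of members called higher (red) or lower (blue) in APC_TRI, with the shares over all genes as dotted and dashed lines (3.61% and 4.28%), and the right panel the median log2 change, APC_TRI minus CTL. Of the 28 lists drawn, interferon-induced genes lie lowest, at a median of -0.78.

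Of 39 calcium handling and ion channel genes 4 rose and 2 fell, with a median change of 0.04. The share called was 15.4%, against 7.89% of all genes and 15.9% of the brightest bin of probe sets. Slc8a1, the exchanger that removes calcium from the cardiomyocyte in diastole, read 3558.3, 3042.6, 3372.0, 3348.1 and 2202.1 in APC_TRI, against 1915.5, 1809.1, 1061.5, 1880.1 and 1763.5 in CTL. The groups did not overlap, and the change was 0.94 ± 0.22 (0.0087). The 4 other Slc8a1 probe sets lay between -0.42 and 0.09 and did not pass. Pln, phospholamban, which restrains the calcium pump of the sarcoplasmic reticulum, read 5567.5, 4965.2, 5601.4, 6484.8 and 4596.1 in APC_TRI, against 8297.6, 8802.3, 9455.2, 7604.7 and 7298.1 in CTL. It was lower on every APC_TRI array, with a change of -0.63 ± 0.15 (0.0088). Fxyd1, phospholemman, which regulates the sodium pump, read 14183.9 to 17319.3 in APC_TRI and 5964.2 to 10059.0 in CTL, a change of 0.78 ± 0.17 (0.005), with 0.13 on its second probe set. Camk2d, the main cardiac calcium-calmodulin kinase, fell by 0.66 (0.0086), was lost with the beta-actin covariate at -0.52, and had 4 other probe sets that did not pass.

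The genes named for preconditioning itself were called at about the same share as all genes. Of 41 preconditioning signalling genes 3 rose and 0 fell (7.32%, against 7.89% of all genes), with a median change of -0.09. Beside Gnai2 these were the bradykinin receptor Bdkrb1 at 0.64 (0.029) and the kinase Gsk3a at 0.40 (0.039). Both were lost without any of several arrays, with Bdkrb1 at 0.58 without the fourth APC_TRI array and Gsk3a at 0.36 without the second APC_TRI array. A second Bdkrb1 probe set gave -0.27 and did not pass. The pore subunits of ATP-sensitive potassium channels, Kcnj11 and Kcnj8, had changes of 0.16 and -0.10, and protein kinase C epsilon and delta, Prkce and Prkcd, had 0.10 and -0.05, with none past the threshold. Of 18 channels and receptors that volatile anaesthetics bind, 0 were called. The smallest p among them was that of the potassium channel Kcnk3, with a change of 0.63 ± 0.23 (0.084).

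Of 29 genes of antioxidant defence 0 rose and 2 fell (6.9% called), the peroxiredoxins Prdx1 and Prdx6, which break down peroxides. Prdx1 read 576.1, 864.2, 752.8, 947.1 and 600.3 in APC_TRI, against 1348.0, 1555.0, 1405.8, 1255.6 and 1161.0 in CTL, a change of -0.83 ± 0.16 (0.0013) without overlap. Prdx6 changed by -0.51 (0.04), was lost under 11 alternatives, and stood at -0.40 without the fourth CTL array. Other Prdx6 probe sets gave -0.09 and -0.16 and did not pass. Hmox1, haem oxygenase, averaged 3711 ± 996.6 in APC_TRI and 2666 ± 632.8 in CTL (SD, n = 5 each), with a change of 0.51 that did not pass (limma adjusted p = 0.08). Plat, tissue plasminogen activator, was the single call among 24 hypoxia and angiogenesis genes (4.17%, against 7.89% of all genes). It read 405.0, 292.7, 360.6, 367.2 and 241.8 in APC_TRI, against 697.4, 718.3, 762.9, 769.9 and 817.8 in CTL, far apart, a change of -1.13 ± 0.18 (0.00025).

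The contractile and structural lists held at most 1 call each. The share over all genes was 7.89%, at which lists of this size would hold few calls. Of 18 sarcomere genes 1 rose (5.56%). It was Tpm1, tropomyosin, at 0.38 (0.016), which was lost at 0.35 without the fourth CTL array and at 0.33 with the beta-actin covariate. Its other probe sets lay between -0.25 and 0.54 and did not pass. Myh6, the fast cardiac myosin heavy chain, had a change of -0.26 ± 0.11 (0.12). The brightest probe set of Myl2 did not pass, but another one did, at -1.01 (0.00086). Of 19 fetal and hypertrophy genes 0 were called, and Nppb, brain natriuretic peptide, averaged 6423 ± 1136 in APC_TRI and 6454 ± 1602 in CTL (SD, n = 5 each). Dcn, the collagen-binding proteoglycan decorin, was the 1 call among 35 extracellular matrix genes (2.86%). It read 32120.9, 33654.7, 25955.6, 31827.8 and 38360.6 in APC_TRI, against 12660.7, 14430.3, 19457.8, 16008.0 and 13747.3 in CTL. No arrays overlapped, and the change was 0.85 ± 0.17 (0.0019). The other 3 Dcn probe sets gave -0.36, -0.04 and 0.35 and did not pass.

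Of 23 cell cycle genes 3 rose and 0 fell (13.0% called against 7.89% of all genes). Those that rose were Cdkn1a, the D-type cyclin Ccnd3 at 0.80 ± 0.18 (0.005) and the retinoblastoma relative Rbl2 at 0.73 ± 0.22 (0.032). Rbl2 was lost without any of 7 arrays, at 0.63 without the fifth APC_TRI array, and 3 other Ccnd3 probe sets did not pass. Among 37 cytosolic ribosomal proteins 2 rose and 2 fell (10.8%, near the share of all genes), of which Rps24 at 0.85 ± 0.19 (0.005) held under every alternative run. In the proteasome and ubiquitin list 1 of 29 rose and 2 fell (10.3%). The muscle ubiquitin ligase Trim63 was the one that rose, at 0.91 (0.035), with 1.82 (0.00014) on a second probe set. The first was lost under 8 of 22 alternatives, 4 of them with 1 array left out. It stood at 0.55 without the second CTL array. Of 14 catecholamine genes and 21 prostaglandin genes 0 were called on their brightest probe set. A second probe set of Maoa, on the catecholamine list, did pass, at -0.81 (0.012).

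The trigger of anaesthetic preconditioning was then compared with the trigger of ischaemic preconditioning, to ask where the 2 stimuli differ. In APC_TRI minus IPC_TRI, 23 of 5244 probe sets (0.439%) were called, 14 higher (0.267%) and 9 lower (0.172%) in APC_TRI, and 771 had an unadjusted p under 0.05. The split was 7 higher and 9 lower with the values as deposited, and 36 higher and 5 lower with median centring. Fitted on these 2 groups alone, limma called 0 probe sets, with 398 at an unadjusted p under 0.05. By gene, 11 of 3155 were called (0.349%), 7 higher (0.222%) and 4 lower (0.127%). IPC_TRI arrays had a mean correlation of 0.884 among themselves, against 0.942 within APC_TRI, and without the third IPC_TRI array 91 probe sets were called.

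The desaturase Scd2, which makes monounsaturated fatty acids, had the largest difference. It read 343.5, 303.9, 338.5, 518.7 and 328.8 in APC_TRI, against 314.0, 38.3, 60.7, 70.1 and 142.0 in IPC_TRI. The first IPC_TRI array lay within the APC_TRI range, and the difference was 1.89 ± 0.28 (limma adjusted p = 0.00051). Pnmt, the enzyme that makes adrenaline from noradrenaline, read 326.4, 346.7, 431.6, 335.5 and 337.4 in APC_TRI, against 176.8, 85.4, 139.8, 179.3 and 183.8 in IPC_TRI, without overlap, a difference of 1.34 ± 0.28 (0.019). Lct, lactase, differed by 1.85 (0.027), Zc3hc1 by 1.31 (0.013), the cytokine Tnfsf13 by 1.18 (0.033) and the cardiac transcription factor Gata6 by 0.69 (0.047).

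Lower in APC_TRI were Uck2, Nme6, Areg and Fdx1. Uck2, a uridine-cytidine kinase, read 201.2, 149.3, 179.6, 224.6 and 416.8 in APC_TRI, against 592.7, 461.0, 633.2, 600.7 and 495.3 in IPC_TRI, without overlap, a difference of -1.26 ± 0.25 (0.015). Areg, the epidermal growth factor receptor ligand amphiregulin, read 20.2, 36.6, 106.2, 28.3 and 115.7 in APC_TRI, against 232.5, 160.5, 115.2, 155.4 and 241.0 in IPC_TRI, a difference of -1.43 ± 0.32 (0.032). The fifth APC_TRI array met the third IPC_TRI array. Nme6, a nucleoside diphosphate kinase, differed by -1.28 (0.0057), and Fdx1, which passes electrons to mitochondrial P450 enzymes, by -0.83 (0.013). None of these 10 genes passed in APC_TRI minus CTL, although another Scd2 probe set did, at -1.34 (0.031).

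Since both trigger groups are set against the same CTL arrays, their changes are given only side by side. IPC_TRI minus CTL had 869 called probe sets (16.6%). Gnai2 changed by 1.27 in APC_TRI and 1.45 in IPC_TRI, and Cdkn1a by 1.59 in APC_TRI and 1.31 in IPC_TRI. Uqcrc2 changed by -1.30 in APC_TRI and -1.17 in IPC_TRI, Pdhb by -0.98 in APC_TRI and -1.34 in IPC_TRI, and Cxcl10 by -1.34 in APC_TRI and -1.63 in IPC_TRI. All of these passed the threshold. Hspa1a differed from CTL by -1.25 in APC_TRI and by -0.10 in IPC_TRI, and Fabp4 by -2.04 in APC_TRI and by -0.84 in IPC_TRI, with neither IPC_TRI value past the threshold. For these genes the direct difference, APC_TRI minus IPC_TRI, was -1.15 ± 0.32 (0.084) for Hspa1a and -1.20 ± 0.34 (0.099) for Fabp4, neither past the threshold.

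Against ischaemia (ISCH), which addresses how the stimulus differs from an ischaemic insult, 837 of 5244 probe sets (16%) were called, 389 higher (7.42%) and 448 lower (8.54%) in APC_TRI. With the beta-actin covariate 298 were called, and the beta-actin difference was -0.357 ± 0.279 in APC_TRI and 0.319 ± 0.063 in ISCH. By gene, 240 of 3155 were higher (7.61%) and 234 lower (7.42%), and the median change over all genes was 0.04. This contrast uses the same APC_TRI arrays as APC_TRI minus CTL, so the 2 lists of calls are not independent and are not set against each other.

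Interferon-induced genes were higher in APC_TRI than in ISCH for 15 of 17 members (88.2%, against 15% of all genes), with a median difference of 1.56. Cxcl10 read 2520.4 to 9390.0 in APC_TRI and 353.9 to 553.3 in ISCH, a difference of 3.53 ± 0.31 (1.1e-09). Mx2 read 210.4 to 2808.3 in APC_TRI and 35.6 to 88.3 in ISCH, a difference of 3.86 ± 0.51 (2.1e-06). APC_TRI thus lay between ISCH and CTL, where Cxcl10 read 10317.9 to 15133.6 and Mx2 1131.7 to 3097.0, although for Mx2 APC_TRI and CTL overlapped. Cx3cl1 (3.06), Rsad2 (3.02), Cdkn1a (2.47) and the costimulatory receptor Cd40 (2.45) followed.

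Immediate early and heat shock genes were lower in APC_TRI than in ISCH for part of their members. Of 34 immediate early genes 12 were lower and 1 higher, and of 16 heat shock genes 7 were lower and 0 higher (38.2% and 43.8% called, against 15% of all genes). Jun read 724.9 to 1339.1 in APC_TRI and 5752.9 to 10553.6 in ISCH, a difference of -3.00 ± 0.22 (3.7e-11). Hspa1a read 1245.3 to 2609.7 in APC_TRI and 14602.2 to 27806.3 in ISCH, a difference of -3.32 ± 0.32 (5.7e-09). Fabp4 differed most, at 14.6 to 86.9 in APC_TRI and 585.9 to 927.0 in ISCH, a difference of -4.01 ± 0.34 (8.5e-10). Hsph1 (-2.97), Klf4 (-2.49) and Egfl7 (-2.25) came next.

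**Figure D5:**
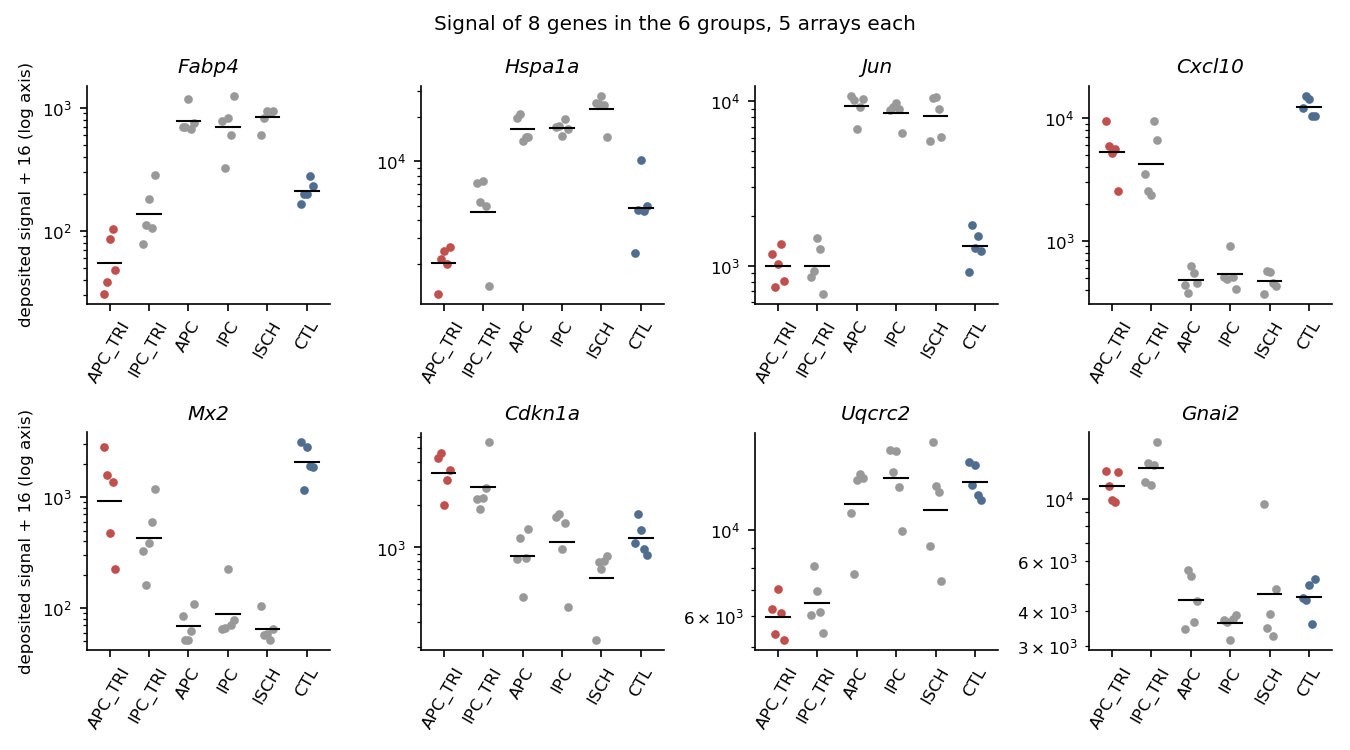
Deposited signal plus 16 on a log axis for 8 genes, 1 point per array in 6 groups, APC_TRI leftmost in red and CTL rightmost in blue, with a line at the mean on the log scale. For Fabp4 and Hspa1a the APC_TRI mean is the lowest of the 6 groups, whereas for Cxcl10 and Mx2 it lies between CTL and the low levels of APC, IPC and ISCH.

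Levels in the hearts of the whole anaesthetic protocol (APC) are given for 3 of these genes (SD, n = 5 each). For Fabp4 and Hspa1a only the changes against CTL are given. APC minus CTL had 192 called probe sets (3.66%). Cdkn1a averaged 3477 ± 1047 in APC_TRI, 912.8 ± 348.6 in APC and 1184 ± 341 in CTL. Gnai2 averaged 11186 ± 1368 in APC_TRI, 4454 ± 968.9 in APC and 4498 ± 612.1 in CTL. Uqcrc2 averaged 5991 ± 736.3 in APC_TRI, 11900 ± 2621 in APC and 13337 ± 1364 in CTL. Against CTL, none of these 3 genes passed in APC, with changes of -0.38 for Cdkn1a, -0.09 for Gnai2 and -0.30 for Uqcrc2. Fabp4 and Hspa1a, which were below CTL in APC_TRI, were above it in APC, with changes of 1.87 (0.00039) and 1.83 (0.00017).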

How the data were processed

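Total RNA of rat left ventricle was hybridised to 30 Affymetrix arrays by the maker's standard procedures, per the labels. Each array's deposited table holds 1 linear intensity for every probe set. Their 2% trimmed mean was 500.8 to 501 on every array, while medians ran from 114.6 to 189.2, so the authors' values had been scaled to a common mean and not quantile normalized. The software is not given in the sources used here. The number of arrays limits the precision. Replicates are biological, per the labels.

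The 59 control probe sets were used only as quality measures. Of the 8740 others, 7006 carried 1 gene symbol, 308 several and 1426 were unnamed here. Symbols came from the platform's annotation, and 6985 identifiers matched a rat gene table. Intensities plus 16 were log2 transformed, then quantile normalized, and a filter dropped the dimmest 40% by mean across arrays, keeping 5244. One mean per group was fitted over all 30 arrays with limma 3.58.1 in R 4.3.3 (moderated variances with a trend), with Benjamini-Hochberg adjustment per contrast and a threshold of 0.05. The fit was tested on simulated data. A gene was read from its brightest probe set with 1 symbol.

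The rule for naming took the 12 largest called changes per direction, up to 4 members per list by smallest p, 8 genes in any case (Nppa, Nppb, Hspa1a, Fos, Jun, Hmox1, Ptgs2 and Myh6) and 6 per direction in other contrasts. The groups, 28 process lists and 12 cell type lists were chosen with earlier results of these data known. Lists are described by counts and medians without a test. Quality measures were compared by 2-sided exact permutation tests (scipy 1.17.1). Tables and figures used Python 3.11.15, numpy 2.4.6, pandas 2.3.3 and matplotlib 3.10.9. Alternatives were other pseudocounts (1, 64), filters, scalings and variance models, array weights, quality covariates, a replicate block, fits of 2 groups, and each array left out in turn.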

Additional observations from a re-analysis of the deposited data

Results flagged for a closer look

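Each group of 5 arrays was examined for an array far from the others, by the gap to its nearest neighbour over the group's range on the log2 scale. Of 196 groups looked at, 14 had one, and chance gives about 1 in 20. In APC_TRI the ratio was 0.743 for Camk2d, where the third array read 1028.6 against 755.2 to 822.2 on the others. It was 0.743 for Nppa on the same array (8617.4 against 1383.7 to 2179.8). It was 0.711 for Ddost on the fourth array (9.0 against 44.8 to 82.3), 0.848 for Rplp0 on the fourth (14808.4 against 17740.7 to 20044.6) and 0.767 for Scd2 on the fourth (518.7 against 303.9 to 343.5). It was 0.785 for Pgk1 on the first array (3023.8 against 4932.4 to 5582.7) and 0.736 for Rfk on the fifth (310.7 against 163.2 to 182.0). It was 1.000 for Tpm1 on the fifth array (87344.4 against 56486.2 to 77322.4), a value that follows from ties among the other arrays after quantile normalization.

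In CTL the ratio was 0.733 for Gsk3a on the fifth array (1298.1 against 1017.2 to 1104.8). On the fourth it was 0.755 for Klf4 (1135.6 against 667.2 to 783.0) and 0.864 for Prdx6 (3092.8 against 2011.2 to 2170.6). On the third it was 0.832 for Slc8a1 (1061.5 against 1763.5 to 1915.5) and 0.777 for the Gapdh 3′ minus 5′ difference (-0.242 against -0.0443 to 0.0126). On the second it was 0.749 for Trim63 (220.5 against 787.3 to 1131.7).

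Of the named genes, 10 differed between the 2 triggers by the direct limma contrast, APC_TRI minus IPC_TRI, at an adjusted p under 0.05. The differences were 1.89 for Scd2, 1.85 for Lct, 1.34 for Pnmt, 1.31 for Zc3hc1, 1.18 for Tnfsf13 and 0.69 for Gata6 upward. They were -1.43 for Areg, -1.28 for Nme6, -1.26 for Uck2 and -0.83 for Fdx1 downward.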

How the results depend on the processing

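For APC_TRI minus CTL, 453 probe sets were called, against 1065 with array weights, 821 with only the 2 groups fitted, 274 with the beta-actin covariate and 487 with the replicate block (438 of them among the 453). With 1 array left out the count ran from 282 (without the fourth CTL array) to 474. For APC_TRI minus IPC_TRI, 23 became 15 with 60% of probe sets left out, 13 with array weights, 41 with the beta-actin covariate, 41 with median centring, 0 with only the 2 groups (398 at an unadjusted p under 0.05) and 28 with the replicate block. Leaving out 1 array gave 8 (without the fourth APC_TRI array) to 91 (without the third IPC_TRI array), and 37, 35, 49 and 79 without IPC_TRI array 1, 2, 4 and 5 in turn. For APC_TRI minus ISCH, 837 became 1284 with array weights, 298 with the beta-actin covariate and 854 with the replicate block, and ran from 624 to 961 with 1 array left out. Same-numbered arrays did not deviate together (correlations -0.1 to 0.05), so the numbers were not taken as pairs. The bacterial spike difference, APC_TRI minus CTL, was 0.34 (2-sided exact permutation p = 0.31), and 0.33 over all bacterial probe sets (exact p = 0.048). Of 70 named genes past the threshold, 34 stayed past it under every alternative run, 36 lost it under at least 1 and 0 reversed. The beta-actin covariate ended 26 of these calls, median centring 8, no filter 8 and the replicate block 1, and 24 were lost with at least 1 array left out. The causes were not tested.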
